A study of Mus musculus with 16 samples.

Results

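The spinal cord rostral to a clip injury (above) was compared with the cord caudal to it (below) across all genes of the deposited count table, 30 days after the injury. The members were taken by their column labels: 4 libraries above and 4 below, of 16 in the series. The other 8 libraries, 4 from the injury epicenter and 4 from uninjured cord, entered the same fit and are given beside the results for reference. All mice were labelled female, 12 weeks old and of strain C57BL7J, with no engineered allele and no drug named for any group. Injured mice received a contusion-compression of the lumbar cord at L1/L3 with an 8 g Fejota clip. The piece above, the epicenter and the piece below were each 3 mm long and made up the 9 mm of cord around the injury. Uninjured mice gave the 9 mm from T11 to S1 as a single piece, so an uninjured library averages over the levels that the injured pieces hold separately. A 3 mm piece of cord holds neurons, glia, vessels, meninges and whatever the lesion recruits, and each library is a mixture of them. Nothing in the labels tells if each library of a group came from its own mouse, or if an above and a below library share one. The p-values therefore measure the spread between libraries of a group, taken over all 16 libraries of the fit, and that spread may be technical.

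Both flanks border the same kind of lesion, but they are not alike in what they contain. The cord is patterned along its length by Hox genes, transcription factors whose expression in the embryo marks the level of a segment and persists in the adult. After a contusion, axons degenerate on the side of the lesion away from their cell body, so that ascending tracts break down above it and descending tracts below it. Phagocytes then take up myelin and its cholesterol, astrocytes become reactive, and fibroblasts, meningeal cells and Schwann cells from the nerve roots can settle in and around the damaged tissue. The comparison asks how these features are divided between the rostral and the caudal flank. Flank and level of the cord change together here, and no uninjured piece matches the level of either flank. For every result below, a normal difference between levels and an unlike response to the injury therefore cannot be told apart.

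Total counts per library ran from 71631833 to 89515289 above and from 73735679 to 90004371 below, and 3 counts, taken as the floor of detection, stood for 0.0333 to 0.0419 CPM, the count scaled to a common library total. Markers of the cord were present in all 8 libraries: Mog of oligodendrocytes at 108 CPM or more, Gfap of astrocytes at 2132 CPM or more, Cx3cr1 of microglia at 73.9 CPM or more and Rbfox3 of neurons at 15.7 CPM or more. Not all libraries of a group were alike. On the first principal component of the 16 libraries, which held 66.4% of the variance, uninjured cord lay between -99.5 and -89.9 and the epicenter between 87.9 and 105. Above 2, 3 and 4 lay between -54.9 and -53.3, and above 1 at -18.1. The libraries below were spread out, with below 2 at -9.98, below 1 at 34.2, below 4 at 42.1 and below 3 at 112, beyond every epicenter library. Below 3 lay more than 1 log2 unit from the nearest other library below, outside their range, in 1599 of 13737 rows with a mean of 5 CPM or more below. It was higher than the rest in 349 of them. Below 2 did so in 241 rows, lower in all of them, and above 1 in 72 of 13312 rows, higher in 70. The median SD between libraries on the log2 scale was 0.214 below and 0.096 above, and 0.11 below without below 3. No library pair agreed within counting noise. Below 3 and above 1 stood apart in most of what follows, and the values without them are given where they matter.

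**Figure D1:**
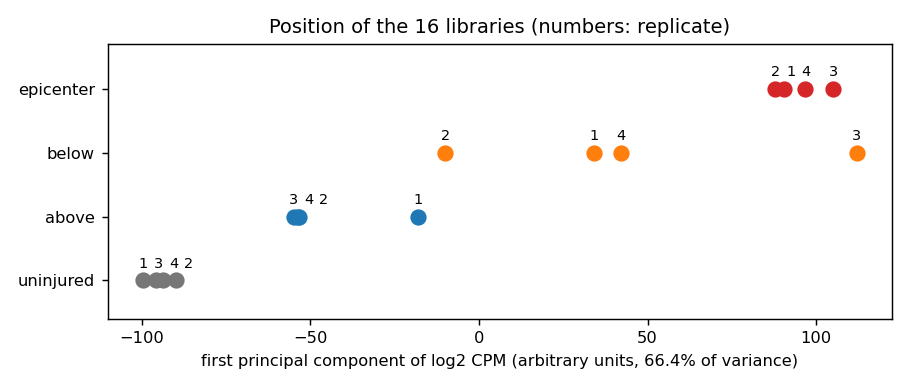
Position of the 16 libraries on the first principal component of log2 CPM (horizontal axis, arbitrary units), by group (vertical axis), with replicate numbers over the points. The libraries above lie next to uninjured cord except above 1, and those below run from -9.98 to 112, the last of them (below 3) beyond the epicenter.

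Of 23769 rows tested with edgeR's quasi-likelihood test and Benjamini-Hochberg adjustment, 5788 (24.4%) passed an adjusted p of 0.05. In 2165 rows (9.11%) the level was higher above and in 3623 (15.2%) higher below. Log2 fold changes are above over below throughout, so that a negative value is higher below, and their errors are SEs. The differences were lopsided in size: 1737 called rows were at least 2-fold higher below and 143 at least 2-fold higher above, and at 4-fold the counts were 557 and 14. The median called row was higher above by 0.43 on the log2 scale or differed by -0.97 in the direction of the cord below, against a median of -0.03 over all rows tested. The 4 libraries above did not overlap the 4 below in 6099 rows (25.7%), 3105 of them higher above (13.1%) and 2994 higher below (12.6%). The count ranged from 3587 without above 2 to 8262 without below 2, with 1112 and 3532 rows higher above, and was 1643 in a fit of these 8 libraries alone. Rows higher above were 1335 without above 3 and 1315 without below 4. Without below 3 the called rows were 2285 higher above (9.5%) and 2787 higher below (11.6%). Scaling by library totals alone, with no correction for composition, gave 953 rows higher above and 5294 higher below and moved the median of all rows to -0.12. No row called under both scalings changed direction.

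Genes were then read in 46 lists of cell types and pathways with 616 memberships, 606 of them tested. Lists of lumbar Hox genes, phagocytes, complement, antigen presentation, lipid handling, fibrous matrix, basement membrane and Schwann cells had most of their members higher below. Cholesterol synthesis, central myelin and the respiratory chain had most of theirs higher above, and the lists of neuronal signaling had few called members in either direction, although limma-voom with library weights called more. In the fit of the 8 flank libraries alone, which takes the spread from them only, the counts of most lists were lower. Those that moved by more than 1.5 times are given with each list as the 8-library fit. The lists of Hox genes, class II presentation, cholesterol synthesis, central myelin and Schwann cells moved less than that. A test against a 1.5-fold change called no member of the respiratory chain, ependymal, central myelin or general neuron lists. Under that test cholesterol synthesis kept 9 of its 21 calls, and several further lists kept none. In a bulk library, fewer cells of a type and less RNA per cell cannot be told apart, and this holds for every list of cell type genes given here.

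**Figure D2:**
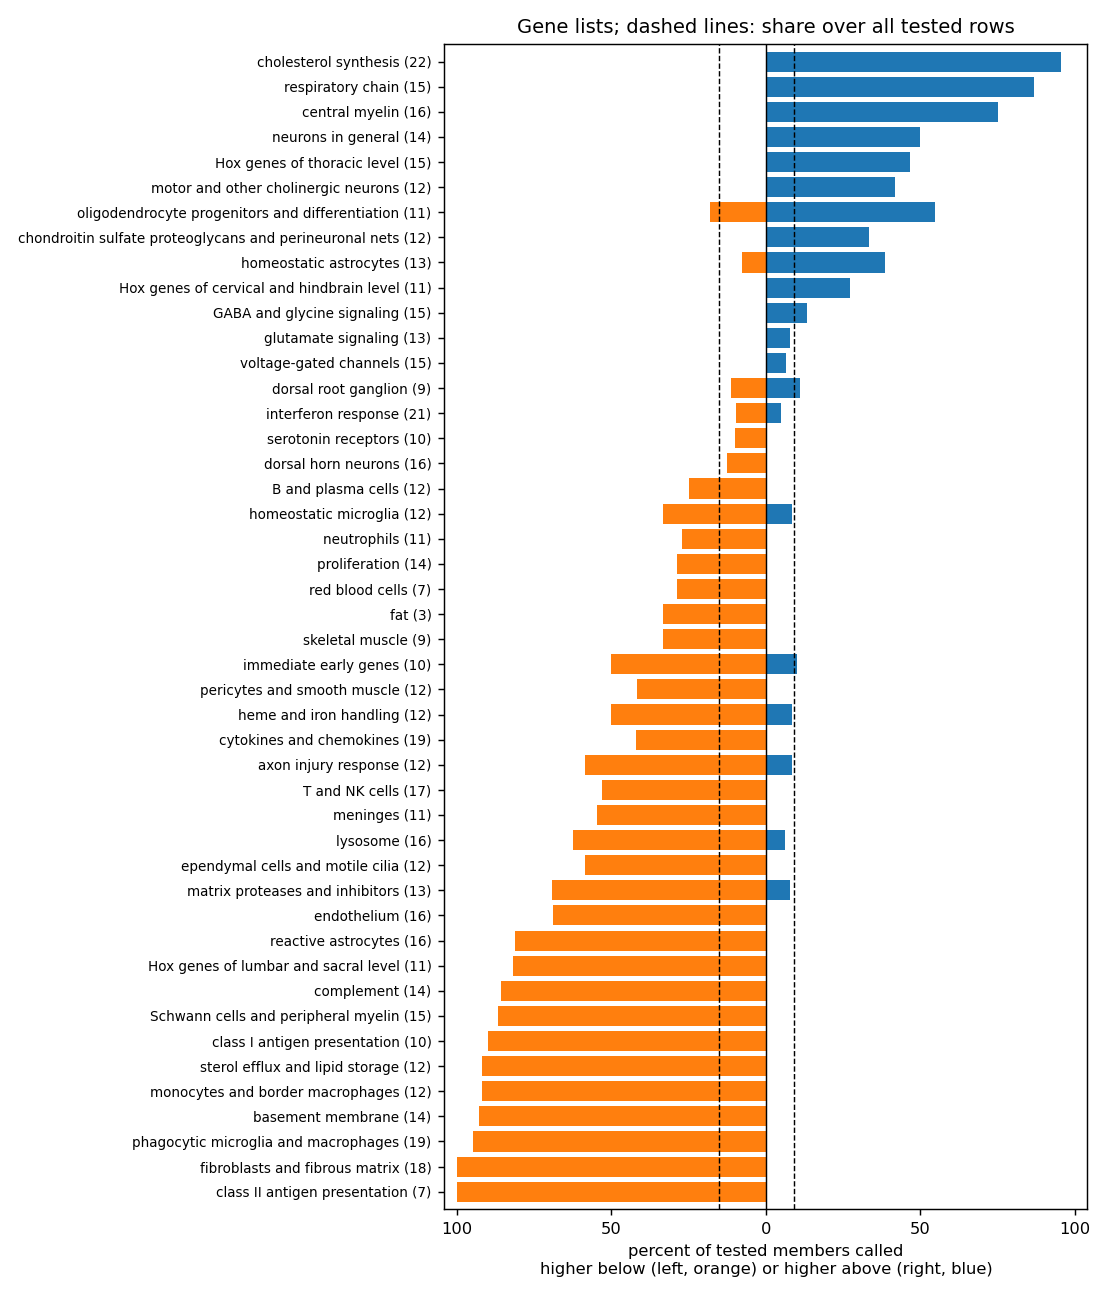
Percent of the tested members of each gene list (number tested in brackets) that were called higher below (orange, to the left) or higher above (blue, to the right). The dashed lines are the shares over all rows tested, 15.2% higher below and 9.11% higher above.

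The sharpest contrast was in the Hox genes of lumbar and sacral level. Of 11 tested, 9 were higher below and none higher above, with a median log2 fold change of -7.23, or -4.87 with the 2 genes that had no count above set at their bound. The 3-prime to 5-prime order of the clusters follows the body axis, and the genes numbered 10 to 13 mark its caudal end. Hoxa11, a gene of the caudal axis and the limbs, counted 0, 0, 0.0114 and 0 CPM above and 10.6, 10.1, 8.80 and 7.98 CPM below. Its 4 libraries above held 1 count together and its 4 below 3163, a ratio of 3080 (95% counting interval 553 to 122000; adjusted p = 3.6e-08). Hoxc12 held 1 count above and 2570 below, a ratio of 2510 (449 to 99000; adjusted p = 2.06e-06). Hoxc13 had no count above and 886 below, at least 288-fold higher below against a floor of 3 counts over the 4 libraries. Hoxa13, also without a count above, had 82 below and was at least 26.7-fold higher. The single counts of Hoxa11 and Hoxc12 both lay in above 3.

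Hoxd11 held 0, 0.0365, 0.0569 and 0.0114 CPM above and 25.5, 31.5, 8.27 and 25.7 CPM below, 9 counts against 7737 in all. Hoxc11 held 4 counts against 3599, a difference called by edgeR (-9.58 ± 1.86, adjusted p = 0.00255) but not by limma-voom with library weights (adjusted p = 0.107). DESeq2 gave a value of -9.69 with no adjusted p. The uninjured libraries, which share the fit, had a mean of 34.4 CPM for Hoxc11 with an SD of 59.5. Whether that spread bears on these p-values was not tested. Hoxd10 stood at 1.46, 0.792, 1.35 and 0.422 CPM above and 32.9, 36.1, 16.3 and 31.6 CPM below (-4.87 ± 0.39, adjusted p = 3.11e-06). The libraries of these genes did not overlap between flanks, and below 3 was the lowest below for all of them except Hoxa11, for which below 4 was. Hoxd13, with 9 counts above and 120 below, and Hoxb13, with 13 and 119, were called as well, but for Hoxb13 below 3 lay among the libraries above. Hoxb13 lost its call without any 1 library above (adjusted p = 0.0646 to 0.0883), without below 2 (-1.61 against -3.03 ± 0.96, adjusted p = 0.161) and with limma-voom (0.184, and 0.0668 with library weights). Hoxa10 and Hoxc10 were present on both sides: Hoxa10 at 25.1, 24.7, 22.5 and 23.7 CPM above against 34.5, 33.9, 19.1 and 31.9 CPM below, and Hoxc10 at 32.5, 30.9, 30.0 and 26.1 CPM against 44.4, 49.5, 18.7 and 39.9 CPM. Below 3 was the lowest of all 8 libraries for both, neither passed (-0.32 ± 0.14 and -0.35 ± 0.21), and without it both were higher below (-0.48 and -0.58, adjusted p = 0.000479 and 0.000989). Of the non-coding RNAs of the clusters, Hotair, which is transcribed from the HoxC cluster, had 2 counts above and 2424 below (ratio 1180, 327 to 9760). Hoxa11os, the antisense transcript of Hoxa11, had 21 and 2648 (ratio 123, 80.3 to 199). The libraries do not mark strand, and 35% of the exonic bases of Hoxa11 overlap an exon on the opposite strand, so reads of Hoxa11 and its antisense RNA cannot be told apart there.

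Hox genes of thoracic level were higher above in 7 of 15 tested and higher below in none, with a median log2 fold change of 0.47. Hoxc8 stood out among them, at 47.2, 50.5, 45.2 and 45.7 CPM above and 13.5, 12.1, 14.0 and 14.0 CPM below. The 4 libraries above lay around the uninjured mean of 48.5 ± 2.45 CPM, and the 4 below lay under the epicenter mean of 31.6 ± 4.64 CPM, with no overlap. Its log2 fold change was 1.82 ± 0.09 (adjusted p = 3.67e-08), and 1.84 without below 3. The other called members moved less: Hoxc9 by 0.71 ± 0.12, Hoxa7 by 0.53 ± 0.10, Hoxa9 by 0.51 ± 0.08, Hoxc6 by 0.47 ± 0.09, Hoxa5 by 0.43 ± 0.08 and Hoxd8 by 0.33 ± 0.08. Of the exonic bases of Hoxa7, 20.4% overlap an exon on the opposite strand. Of 11 genes of cervical and hindbrain level, Hoxa4 (0.58 ± 0.11), Hoxc4 (0.66 ± 0.12) and Hoxd1 (0.82 ± 0.26) were higher above, and 5 were without below 3. The call of Hoxd1 was lost without above 2, 3 or 4 or below 1 or 4 (adjusted p = 0.0925, 0.0696, 0.0532, 0.0748 and 0.0647).

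**Figure D3:**
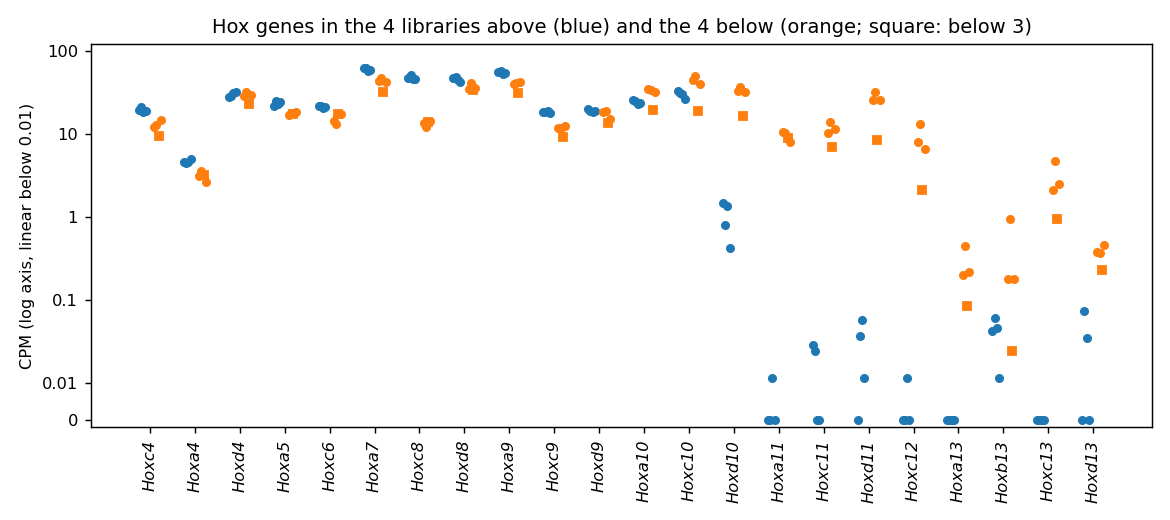
CPM (vertical axis, logarithmic above 0.01 and linear under it) of 22 Hox genes in the libraries above (blue) and below (orange, with below 3 as a square). From Hoxd10 to the right the points below lie over those above, except for Hoxb13, for which below 3 lies among the libraries above. Hoxc8 is the clearest case of the opposite order. CPM is not corrected for gene length, so heights are compared within a gene only.

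Outside the Hox clusters, the 2 genes with the largest difference in favour of the cord above were Slc17a7 and Calca. Slc17a7, a vesicular glutamate transporter of a subset of excitatory neurons, counted 6.85, 9.45, 8.29 and 8.40 CPM above and 0.0877, 0.0948, 0.108 and 0.141 CPM below. The 4 values above lay over the uninjured mean of 2.77 ± 0.297 CPM and the 4 below under it, with no overlap (6.25 ± 0.77, adjusted p = 0.000103). Calca, which encodes calcitonin gene-related peptide of motor and sensory neurons, counted 58.9, 81.8, 96.0 and 84.9 CPM above and 9.53, 6.99, 21.0 and 13.8 CPM below, with no overlap (2.65 ± 0.40, adjusted p = 0.000454). The uninjured mean of Calca was 21.3 ± 1.91 CPM and that of the epicenter 119 ± 83.1 CPM. Its paralog Calcb was higher above by 1.70 ± 0.35. The rest of the 12 largest, among genes of at least 5 CPM whose flanks did not overlap, were Nkx2-9, a homeobox gene of the ventral midline (1.5 ± 0.15), Kcng1, a modifier subunit of potassium channels (1.46 ± 0.37), Dmp1 (1.4 ± 0.18), the small GTPase gene Rab37 (1.39 ± 0.13), the delta opioid receptor gene Oprd1 (1.27 ± 0.40), Chodl, a marker of fast motor neurons (1.26 ± 0.31), the calcium buffer gene Pvalb (1.25 ± 0.31) and Sptssb, of sphingolipid synthesis (1.23 ± 0.35). Oprd1 lost its call without any 1 of the 4 libraries above or below 4 (adjusted p = 0.0575 to 0.0701), and Sptssb without above 2 (0.0513).

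Outside the Hox genes, the lowest p-values among genes higher above went to small and steady differences. Tmprss5, a membrane serine protease, counted 25.2, 25.6, 25.1 and 26.4 CPM above and 14.1, 14.0, 14.2 and 13.8 CPM below (0.87 ± 0.08, adjusted p = 7.78e-06). Cpox, an enzyme of heme synthesis, counted 72.1, 73.7, 73.7 and 73.0 CPM above and 47.6, 47.0, 48.6 and 47.1 CPM below (0.62 ± 0.05, adjusted p = 4.17e-06). In both, the libraries of a flank were close to each other, below 3 included. Nipal4 (1.00 ± 0.08), Tmeff1 (0.66 ± 0.06) and Hopx (0.83 ± 0.07) were also higher above, although 27.2% of the exonic bases of Hopx overlap an exon on the opposite strand. In the other direction the lowest p-values outside the Hox clusters were those of Drp2, a dystrophin-related protein of the Schwann cell membrane (82.8, 63.8, 63.1 and 64.0 CPM above and 303, 248, 323 and 258 CPM below, -2.05 ± 0.14), Il16 (-2.15 ± 0.15) and Ccdc37 (-2.06 ± 0.15).

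Genes of phagocytic microglia and macrophages were higher below in 18 of 19 tested, with a median log2 fold change of -1.80, and none was higher above. Gpnmb, a membrane glycoprotein of lipid-laden phagocytes, counted 45.1, 35.1, 28.4 and 32.0 CPM above and 727, 106, 2270 and 794 CPM below, against 2.71 ± 1.07 CPM in uninjured cord. All libraries below lay over all those above, but they ran from below 2, at 106 CPM, to below 3, at 2270 CPM. Its log2 fold change was -4.79 ± 0.66 (adjusted p = 0.000235) and -3.95 without below 3. Atp6v0d2, a subunit of the lysosomal proton pump in macrophages and osteoclasts, counted 0.636, 0.573, 0.444 and 0.959 CPM above and 38.8, 5.21, 71.7 and 45.0 CPM below (-5.94 ± 0.64, adjusted p = 3.44e-05), again lowest in below 2 and highest in below 3. Lyz2, the lysozyme of myeloid cells, had -3.71 ± 0.57 (-2.87 without below 3), the macrophage elastase Mmp12 -2.66 ± 0.44, and Cd68, a lysosomal protein of phagocytes, -2.39 ± 0.44 (-1.58 without it). Trem2, a lipid receptor of microglia, counted 41.9, 41.2, 39.5 and 37.5 CPM above and 102, 42.4, 279 and 109 CPM below, where below 2 lay close to the libraries above (-1.73 ± 0.37, and -1.08 without below 3). Fabp5, a fatty acid carrier, was the member that did not pass (-0.49 ± 0.22, adjusted p = 0.12), although it did without below 2 (-0.66). Without below 3 the list counted 16 members higher below and its median was -1.08, and the 8-library fit called 7.

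Homeostatic genes of microglia were divided. P2ry12, a purine receptor of resting microglia, counted 27.4, 31.0, 26.2 and 28.6 CPM above and 26.2, 22.0, 19.8 and 27.0 CPM below and did not pass (0.25 ± 0.10, adjusted p = 0.0772), but was higher above without below 4 (0.32, adjusted p = 0.0468). Tmem119, a marker of microglia against macrophages, did not pass either (-0.19 ± 0.15). Olfml3 was higher below (-1.22 ± 0.29) and so were 3 other members of 12, while the fructose transporter gene Slc2a5 was higher above (0.89 ± 0.28). The count of members higher below was 2 without above 2, above 3 or below 3 and 1 without above 4, the 8-library fit called no member in either direction, and the call of Slc2a5 ended without above 1, 3 or 4 or below 4 (adjusted p = 0.056, 0.0668, 0.0685 and 0.0832).

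Monocyte and border macrophage genes were higher below in 11 of 12 tested (median -2.17). Ms4a7, a marker of macrophages of the brain borders and of recruited cells, counted 1.89, 1.38, 0.991 and 0.719 CPM above and 23.1, 4.34, 58.2 and 23.9 CPM below (-4.47 ± 0.57, and -3.79 without below 3). The mannose receptor gene Mrc1 (-2.82 ± 0.45), the chitinase-like gene Chil3 (-3.67 ± 0.79) and Plac8 (-2.59 ± 0.43) followed. Mrc1 counted 6.29, 1.21, 2.23 and 1.46 CPM above and was highest there in above 1, without which the value was -3.59. Chil3 had -4.47 without above 4 and -2.86 without below 1. Ly6c2, the marker of inflammatory monocytes, did not pass (-0.46 ± 0.23). Cd5l, a secreted protein of macrophages, counted 0.141, 0.0487, 0.205 and 0.0685 CPM above and 7.26, 0.853, 15.9 and 8.58 CPM below (-6.12 ± 0.76). With Atp6v0d2 it made the 2 largest differences in favour of the cord below outside the Hox clusters, among genes of at least 5 CPM.

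Lymphocyte genes were sparse on both sides. Of 17 genes of T and NK cells 9 were higher below, among them Cd3g of the T cell receptor complex (-3.13 ± 0.48), Ncr1 of NK cells (-3.14 ± 0.50) and the granzyme gene Gzmb (-2.5 ± 0.60). Cd3g reached at most 0.575 CPM and Gzmb at most 0.263 CPM in a library. Cd4, the co-receptor of helper T cells, counted 0.141, 0.207, 0.239 and 0.0913 CPM above and 4.01, 0.579, 3.87 and 3.95 CPM below (-4.17 ± 0.52), with below 2 far under the other 3 below. Which cells carried the difference of Cd4 was not tested. Of 12 genes of B and plasma cells, 3 were higher below: Igkc (-1.92 ± 0.42), Cd79a (-1.60 ± 0.36) and Cd79b (-1.15 ± 0.37), the last not without above 1, 2 or 3 or below 1 or 3 (adjusted p = 0.0744 to 0.132). Of 11 neutrophil genes 3 were higher below, Elane (-2.32 ± 0.54), Mmp8 (-2.0 ± 0.50) and Retnlg (-1.79 ± 0.60), and the count was 9 without above 4 and 6 without epicenter 1 or 4. S100a9, an abundant neutrophil protein, counted 1.96, 1.91, 1.97 and 7.91 CPM above, with above 4 over the others, and 10.8, 9.73, 5.80 and 5.92 CPM below (-1.23 ± 0.57, adjusted p = 0.124); without above 4 it was higher below (-2.04, adjusted p = 0.0229). The call of Retnlg was lost without any 1 of 12 of the 16 libraries (adjusted p = 0.054 to 0.113).

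Class II antigen presentation was higher below in all 7 genes tested, with a median of -2.51. H2-Aa, a chain of the class II molecule, counted 10.6, 2.72, 2.42 and 1.80 CPM above and 33.5, 16.3, 35.2 and 35.2 CPM below. The flanks did not overlap, above 1 was the highest above and below 2 the lowest below (-2.79 ± 0.48, adjusted p = 0.00114), and the value was -3.69 without above 1. Its partners H2-Ab1 (-2.83 ± 0.40, -3.56 without above 1) and H2-Eb1 (-2.55 ± 0.36, -3.18 without above 1) and the invariant chain gene Cd74 (-2.51 ± 0.34) were close to it. The peptide loading genes H2-DMb1 (-1.58 ± 0.25) and H2-DMa (-0.48 ± 0.14) and the master regulator Ciita (-0.44 ± 0.12) differed less. Ciita counted 3.38, 3.14, 2.66 and 3.02 CPM above and 4.08, 4.78, 3.58 and 4.09 CPM below and lost its call without above 3 (adjusted p = 0.0533), and H2-DMa lost its call without above 2, 3 or 4 or below 3 (0.0645 to 0.0785). Class I genes were higher below in 9 of 10 tested (median -0.92) and in 2 in the 8-library fit, led by H2-D1 (-1.35 ± 0.24), H2-K1 (-1.32 ± 0.22), the light chain gene B2m (-1.10 ± 0.22) and the immunoproteasome gene Psmb8 (-1.09 ± 0.24).

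Class II promoters are known for a row of boxes that a CIITA-containing complex reads, the last of which, the Y box, is an inverted CCAAT motif. The promoters of 2 class II chains are shown because the letters CTGATTGG, in capitals, occur in both. They are the 250 bases before the annotated start in RefSeq (GRCm38.p6), H2-Aa at chr17:34287824-34288073 on the minus strand and H2-Eb1 at chr17:34305617-34305866 on the plus strand.
H2-Aa: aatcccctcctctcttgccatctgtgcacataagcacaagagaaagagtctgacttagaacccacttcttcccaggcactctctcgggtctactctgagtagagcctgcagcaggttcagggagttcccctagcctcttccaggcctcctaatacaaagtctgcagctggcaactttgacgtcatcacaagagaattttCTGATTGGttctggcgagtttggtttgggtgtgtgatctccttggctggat
H2-Eb1: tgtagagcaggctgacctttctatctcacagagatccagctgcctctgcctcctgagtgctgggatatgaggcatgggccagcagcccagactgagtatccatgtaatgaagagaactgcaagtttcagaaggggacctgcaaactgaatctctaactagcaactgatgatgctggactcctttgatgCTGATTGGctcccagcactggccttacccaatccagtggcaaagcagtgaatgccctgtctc
RefSeq promoters matched 4 of the 7 genes, with 5 promoters. CTGATTGG, on either strand, was in 2 of the 5 (40%) and in 3.83% of all 32851 promoters of that length. It overlaps the reverse complement of CCAAT, which was in 4 of the 5 (80%) and in 33.8% of all. An exact match to a fixed form of the longer X box motif was in the promoter of H2-DMb1 alone, 1 of 5 (20%). It was in 2 of all promoters (0.00609%). Variants of that form were not counted, and the H2-Eb1 promoter printed above holds one that differs in its first letter. The search therefore cannot tell which promoters lack an X box.

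The interferon list had few called members. Of 21 genes tested 1 was higher above and 2 were higher below, with a median of 0.05. Oasl2, a typical interferon-induced gene, counted 31.4, 19.2, 28.9 and 9.49 CPM above and 29.4, 26.3, 17 and 18.3 CPM below (-0.03 ± 0.30, adjusted p = 0.95). Above 4 was the lowest of the 8 libraries for Oasl2 and for Isg15, at 8.24, 5.09, 6.71 and 1.91 CPM above and 6.64, 4.89, 4.37 and 4.42 CPM below. Mx2 was the gene higher above (0.63 ± 0.21) and Gbp2 (-0.91 ± 0.20) and Bst2 (-0.83 ± 0.29) those higher below. Without above 4 the counts were 3 and 1, and in the 8-library fit both were 0. The calls of Mx2 and Bst2 were lost without any 1 of 10 and of 12 libraries, respectively (adjusted p = 0.0509 to 0.117 and 0.0502 to 0.131).

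Complement genes were higher below in 12 of 14 tested (median -1.68), and in 5 in the 8-library fit. Serping1, the inhibitor of the first component, counted 49.0, 14.1, 13.0 and 11.5 CPM above and 153, 64.3, 234 and 159.8 CPM below (-2.80 ± 0.44), with above 1 over the other 3 above and a value of -3.57 without it. The protease gene C1ra (-2.62 ± 0.35), the receptor gene C3ar1 (-2.41 ± 0.41, -1.75 without below 3) and C2 (-2.26 ± 0.35) followed, and 42.8% of the exonic bases of C2 lie in another gene on the same strand. The central component C3 counted 291, 279, 314 and 311 CPM above and 466, 193, 902 and 498 CPM below and did not pass (-0.78 ± 0.32, adjusted p = 0.0803), nor did C4b (-0.42 ± 0.15). Both were higher below without below 2 (-1.05 and -0.55, adjusted p = 0.00284 and 0.00649), the library below that lay under all 4 above for both genes. Of 19 cytokine and chemokine genes 8 were higher below (1 in the 8-library fit), led by Ccl8 (-3.0 ± 0.77, -5.31 without above 1), Cxcl9 (-2.02 ± 0.48) and the scavenger chemokine gene Cxcl16 (-2.01 ± 0.33). Ccl4, a chemokine of activated microglia, did not pass (-0.50 ± 0.27) except without below 2 (-0.72, adjusted p = 0.0207).

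Lysosomal genes were higher below in 10 of 16 tested (median -0.74) and higher above in 1, and in the 8-library fit no member was called in either direction. The cathepsin genes Ctsl (-1.58 ± 0.32), Ctsz (-1.5 ± 0.34, -0.89 without below 3) and Ctss (-1.5 ± 0.30) and the hexosaminidase gene Hexa (-1.52 ± 0.34, -0.89 without it) led the list. Atp6v1h, a subunit of the vacuolar proton pump, which neurons also use, was the member higher above (0.47 ± 0.11). An exon on the opposite strand covers 26.8% of the exonic bases of Ctsl. Heme and iron genes were higher below in 6 of 12 tested (3 in the 8-library fit), among them the iron transporter gene of phagosomes Slc11a1 (-1.98 ± 0.39, -1.34 without below 3), the haptoglobin gene Hp (-1.78 ± 0.45), the ferritin light chain gene Ftl1 (-1.74 ± 0.33) and the heme oxygenase gene Hmox1 (-1.46 ± 0.29). Hmox1 counted 9.37, 9.65, 9.05 and 9.61 CPM above and 20.6, 11.8, 48.4 and 23.0 CPM below, with no overlap. The transferrin receptor gene Tfrc, by which cells take up iron, was higher above (0.63 ± 0.15), as were 2 further members without below 3, and none in the 8-library fit. An exon on the opposite strand covers 26.5% of the exonic bases of Ftl1. Of 7 genes of red blood cells 2 were higher below, none without above 1, above 2 or below 1 or in the 8-library fit, and 1 without above 3 or below 3. The hemoglobin gene Hba-a1 did not pass, at 52.4, 60.6, 44.6 and 57.5 CPM above and 119, 78.1, 60.4 and 47.2 CPM below.

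Genes of sterol efflux and lipid storage were higher below in 11 of 12 tested, with a median of -1.51, and the count was 11 without any 1 library and 7 in the 8-library fit. Cd36, a scavenger receptor for oxidized lipid, counted 1.27, 1.13, 1.34 and 1.14 CPM above and 21.3, 5.77, 26.1 and 19.7 CPM below. The libraries above were close together and below 2 was the lowest below, still over all of them (-3.90 ± 0.38, adjusted p = 1.85e-05). The acid phosphatase gene Acp5 (-3.67 ± 0.63, -4.65 without above 1), the scavenger receptor gene Msr1 (-2.98 ± 0.53, -2.04 without below 3) and the apolipoprotein gene Apoc1 (-2.16 ± 0.34) came next. Abca1, the sterol efflux pump, counted 105, 107, 153 and 134 CPM above and 386, 194, 1041 and 449 CPM below (-2.05 ± 0.40, -1.46 without below 3). Lpcat2, of phospholipid remodelling, was the member that did not pass (0.05 ± 0.14).

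Cholesterol synthesis went the other way. Of 22 tested members, which include the enzymes of the mevalonate pathway and the sterol sensors, 21 were higher above and none higher below, with a median log2 fold change of 0.85. The count was 21 in each fit that left out 1 library and with library totals alone. In all 21 the 4 libraries above lay over the 4 below. Sqle, the squalene epoxidase, counted 71.4, 77.3, 76.5 and 75.9 CPM above and 37.9, 45.7, 31.6 and 33.5 CPM below. Its uninjured mean was 92.5 ± 1.56 CPM and its epicenter mean 33.8 ± 1.91 CPM, so that the order was uninjured, above, below and epicenter, the last 2 within their spread (1.02 ± 0.09, adjusted p = 8.64e-06). Idi1, an isomerase of the pathway, counted 55.0, 60.9, 52.0 and 48.5 CPM above and 25.9, 33.6, 19.8 and 23.1 CPM below (1.08 ± 0.13, adjusted p = 8.22e-05). Hmgcs1, an early enzyme of the pathway, counted 255, 307, 286 and 270.2 CPM above and 145, 187, 127 and 123 CPM below (0.94 ± 0.11, adjusted p = 8.98e-05). Below 2 was the highest of the libraries below for all 3 genes.

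The sensor gene Insig1 (1.02 ± 0.16) differed by as much as Sqle. Srebf2, the transcription factor of the pathway, differed less (0.53 ± 0.11, adjusted p = 0.00492). Ebp, a sterol isomerase, did not pass (0.20 ± 0.10, adjusted p = 0.157). Oligodendrocytes, astrocytes and phagocytes all hold this pathway, and which of them carried the difference was not tested.

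**Figure D4:**
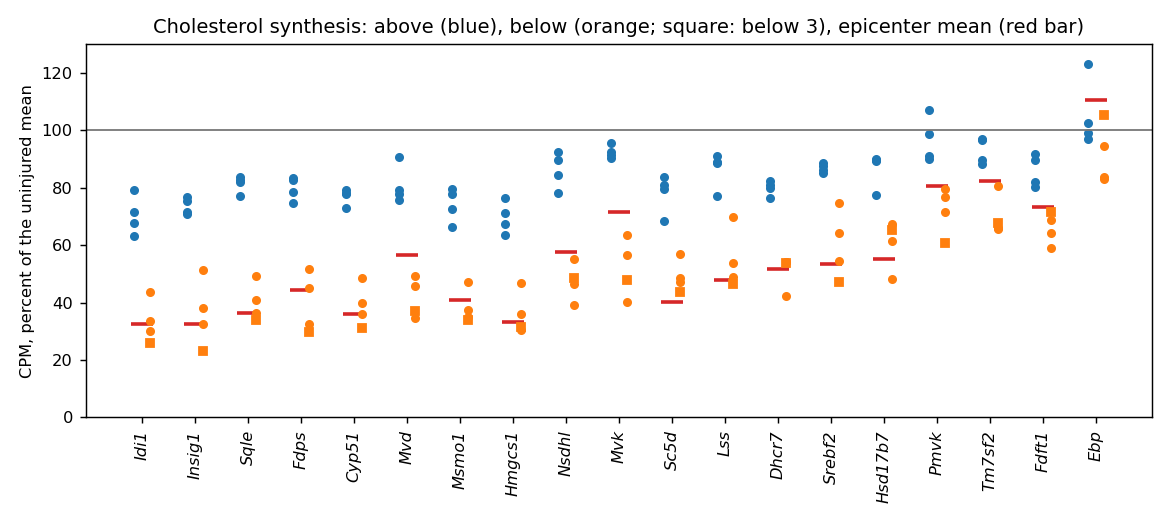
CPM of 19 cholesterol synthesis genes as percent of the uninjured mean of each gene (vertical axis; the grey line is the uninjured mean) in the libraries above (blue) and below (orange, with below 3 as a square), with the epicenter mean as a red bar. For 18 genes, all but Ebp at the right, the 4 blue points lie over the 4 orange ones.

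Sterol genes share a promoter design in which SREBP-2 binds beside NF-Y, a factor that reads CCAAT. The promoters of 3 members are shown because all 3 hold the letters CCAAT in the reverse orientation, ATTGG, printed in capitals. They are again the 250 bases before the annotated start in RefSeq (GRCm38.p6), Hmgcs1 at chr13:119690101-119690350, Idi1 at chr13:8885356-8885605 and Insig1 at chr5:28071162-28071411, all on the plus strand.
Hmgcs1: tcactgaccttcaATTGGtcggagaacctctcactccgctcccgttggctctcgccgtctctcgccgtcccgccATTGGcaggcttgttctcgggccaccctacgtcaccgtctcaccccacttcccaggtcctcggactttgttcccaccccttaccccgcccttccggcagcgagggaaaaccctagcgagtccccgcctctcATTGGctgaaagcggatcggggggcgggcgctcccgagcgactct
Idi1: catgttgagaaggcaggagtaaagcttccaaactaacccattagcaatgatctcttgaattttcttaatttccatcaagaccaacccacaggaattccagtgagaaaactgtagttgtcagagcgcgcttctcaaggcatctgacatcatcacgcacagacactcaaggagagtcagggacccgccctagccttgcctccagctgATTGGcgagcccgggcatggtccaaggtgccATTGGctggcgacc
Insig1: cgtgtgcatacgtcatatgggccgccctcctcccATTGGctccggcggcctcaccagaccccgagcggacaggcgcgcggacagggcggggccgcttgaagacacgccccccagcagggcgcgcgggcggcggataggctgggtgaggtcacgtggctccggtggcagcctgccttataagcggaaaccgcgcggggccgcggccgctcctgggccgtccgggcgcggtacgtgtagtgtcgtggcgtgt
Hmgcs1 holds 3 matches, Idi1 2 and Insig1 1. RefSeq promoters matched 16 of the 22 genes, with 19 promoters, and CCAAT on either strand was in 16 of the 19 (84.2%), at least 1 for each of the 16 genes, against 33.8% of all 32851 promoters. The letters TCACNCCAC, a form of the sterol regulatory element, were in 1 of the 19 (5.26%), that of Hmgcs1, and in 1.05% of all.

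Central myelin genes were higher above in 12 of 16 tested and higher below in none (median 0.48). Mog, on the outer face of the sheath, counted 187, 192, 189 and 192 CPM above and 111, 119, 152 and 108 CPM below, where below 3 was the highest. The flanks did not overlap, and the uninjured mean was 184 ± 6.12 CPM (0.63 ± 0.10, adjusted p = 0.000689). The cytoskeletal gene Ermn counted 243, 268, 275 and 251 CPM above and 154, 157, 181 and 151 CPM below (0.69 ± 0.09). Mbp, whose call was lost without below 4 (adjusted p = 0.0547) and with library totals alone (0.0506), differed by 0.45 ± 0.13. Of 11 genes of oligodendrocyte progenitors and differentiation, 6 were higher above, among them Enpp6 of newly formed oligodendrocytes (0.70 ± 0.17) and C1ql1 (0.56 ± 0.18), and 2 were higher below, the progenitor markers Pdgfra (-0.54 ± 0.12) and Cspg4 (-0.73 ± 0.22). Pdgfra and Cspg4 are also genes of fibroblasts and pericytes. The count higher above was 3 without above 3 or below 4 and with library totals alone, and the 8-library fit called none higher above and 1 higher below. The calls of C1ql1 (adjusted p = 0.0658 to 0.101) and Cspg4 (0.0501 to 0.0653) were lost without 6 and 3 libraries, respectively.

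Reactive astrocyte genes were higher below in 13 of 16 tested (median -1.14), and in 5 in the 8-library fit. Which cells carried the differences of this list was not tested. Steap4, a metalloreductase induced by inflammation, counted 1.61, 1.21, 0.592 and 0.616 CPM above and 18.1, 5.08, 28.4 and 21.4 CPM below, with no overlap (-4.19 ± 0.48, adjusted p = 5.68e-05). Lcn2, an iron-binding secreted protein (-2.35 ± 0.38), the ceruloplasmin gene Cp (-1.92 ± 0.33) and the matrix gene Tnc (-1.73 ± 0.35) followed. Serpina3n, a protease inhibitor, counted 224, 221, 221 and 254 CPM above and 398, 213, 1093 and 466 CPM below, where below 2 lay under all 4 above and below 3 far over the rest (-1.24 ± 0.33, and -0.64 without below 3). Vim, an intermediate filament gene, moved by -1.17 ± 0.33 (-0.55 without below 3) and lost its call without above 2 or 3 (adjusted p = 0.0556 and 0.0517). Gfap, the defining filament, counted 3606, 3190, 3663 and 3896 CPM above and 3390, 2132, 7768 and 3359 CPM below and did not pass (-0.21 ± 0.27, adjusted p = 0.586). Homeostatic astrocyte genes were higher above in 5 of 13, among them the amino acid transporter gene Slc7a10 (0.81 ± 0.25), the potassium channel gene Kcnj10 (0.48 ± 0.09) and the receptor gene Fgfr3 (0.44 ± 0.10), and higher below in 1, the glutamate transporter gene Slc1a3 (-0.57 ± 0.16). Without any 1 library above or below 4 that count was 2 or 3, in the 8-library fit it was 2 with none higher below, Slc7a10 was not called in any of those 5 fits (adjusted p = 0.0514 to 0.06), and Slc1a3 was not called without above 1 (0.0507). The water channel gene Aqp4 counted 692, 707, 863 and 784 CPM above and 858, 612, 2275 and 858 CPM below and did not pass (-0.60 ± 0.32).

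Genes of ependymal cells, which line the central canal, were higher below in 7 of 12 tested (median -0.62). Mia (-1.48 ± 0.34, -0.82 without below 3) and Rarres2 (-0.89 ± 0.19) were among them, although 41.2% of the exonic bases of Mia lie in another gene on the same strand and 33.6% of those of Rarres2 overlap an exon on the opposite strand. The count was 3 without below 3 or above 2, 2 without above 4 and 4 without above 1 or 3, uninjured 2 or 4 or epicenter 1, and 0 in the 8-library fit. Foxj1, the master regulator of motile cilia, counted 41.5, 38.0, 38.4 and 38.1 CPM above and 34.9, 34.3, 69.0 and 32.8 CPM below. Below 3 was the highest of the 8 and the other 3 below lay under all 4 above, so that the value turned from -0.13 ± 0.18 (adjusted p = 0.61) to 0.20 (adjusted p = 0.043) without below 3.

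Genes of fibroblasts and fibrous matrix were higher below in all 18 tested, with a median of -2.11, and in 9 in the 8-library fit. Col1a1, the main chain of fibrillar collagen, counted 70.7, 9.75, 11.4 and 10.7 CPM above and 179, 56.3, 314 and 159 CPM below. Above 1 held more than below 2, and the other 3 libraries above lay far under both, beside an uninjured mean of 7.98 ± 1.14 CPM (-2.79 ± 0.62, adjusted p = 0.00564, and -4.06 without above 1). Dcn, a small proteoglycan of connective tissue, counted 64.2, 12.5, 11.1 and 9.00 CPM above and 448, 153, 492 and 479 CPM below (-4.02 ± 0.59, -5.17 without above 1), and DESeq2 gave -4.01 with no adjusted p. Col3a1 (-3.53 ± 0.75, -5.25 without above 1), Mfap5 (-3.87 ± 0.77, -6.04) and Lum (-3.52 ± 0.63, -4.95) were alike. Postn, a matrix protein of scars, counted 6.57, 7.92, 6.38 and 7.28 CPM above and 39.6, 10.4, 62.6 and 45.1 CPM below, where above 1 did not stand out (-2.48 ± 0.41, adjusted p = 0.000884). Col28a1, a collagen of peripheral nerve (-4.86 ± 0.49, -5.65 without above 1), and the imprinted RNA H19 (-5.08 ± 0.65, -5.92 without it) were among the 12 largest differences in favour of the cord below at 5 CPM or more with no overlap.

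Basement membrane genes were higher below in 13 of 14 tested (median -1.4), and in 8 in the 8-library fit. Lamb1, a laminin chain, counted 16.1, 8.92, 10.4 and 10.9 CPM above and 77.2, 45.8, 91.5 and 71.3 CPM below, with no overlap (-2.62 ± 0.20, adjusted p = 2.38e-06). The perlecan gene Hspg2 (-2.80 ± 0.33), Lama4 (-2.34 ± 0.27) and Lama2 (-2.24 ± 0.26) were the others of the 4 largest. Among matrix proteases and inhibitors 9 of 13 were higher below (5 in the 8-library fit), led by Mmp3 (-4.64 ± 0.65), Adam8 (-2.49 ± 0.37) and the gelatinase gene Mmp2 (-2.01 ± 0.33). Mmp3 was near the floor above, with 11 counts over the libraries above and 292 over those below. Adamts4, an aggrecanase, was the member higher above (0.41 ± 0.10), with 2 such members without below 3 and none in the 8-library fit. Chondroitin sulfate proteoglycans and perineuronal net genes were higher above in 4 of 12 and higher below in none: Acan (0.99 ± 0.27), Hapln2 (0.70 ± 0.08), Ncan (0.67 ± 0.10) and Bcan (0.54 ± 0.11). The call of Acan was lost without below 4 (adjusted p = 0.0522). The link protein gene Hapln1 counted 17.3, 20.9, 19.5 and 20.7 CPM above and 9.88, 13.7, 0.693 and 8.81 CPM below and did not pass (1.25 ± 0.48, adjusted p = 0.0726), but did without below 2 or 3 (1.60 and 0.86).

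Schwann cell and peripheral myelin genes were higher below in 13 of 15 tested, with a median of -3.06. Pmp22, a protein of compact peripheral myelin, counted 177, 84.6, 86.0 and 84.8 CPM above and 658, 438, 785 and 558 CPM below. The flanks did not overlap, and the libraries above other than above 1 lay near the uninjured mean of 80.3 ± 7.47 CPM (-2.5 ± 0.23, adjusted p = 1.14e-05). Prx, of the sheath of peripheral nerve, counted 52.7, 0.889, 0.854 and 1.31 CPM above and 376, 261, 397 and 314 CPM below (-4.60 ± 1.20, -8.37 without above 1). Egr2, the transcription factor of myelinating Schwann cells, counted 2.90, 1.78, 1.55 and 1.66 CPM above and 16.5, 10.1, 21.3 and 13.2 CPM below (-2.96 ± 0.25, adjusted p = 4.81e-06). Pmp2 (-4.83 ± 0.69, -6.98 without above 1), Cldn19 (-4.74 ± 0.87, -7.33) and Dhh (-4.27 ± 0.74, -6.37) were further members, with 86.9% of the exonic bases of Pmp2 in another gene on the same strand and 25.2% of those of Dhh under an exon on the opposite strand.

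Meningeal genes were higher below in 6 of 11 tested, a count that was 11 without above 1, 3 without above 2, 3 or 4 and 2 in the 8-library fit. Their mean log2 CPM in above 1 lay 3.93 over the uninjured mean, in the range of the cord below (3.09 to 4.60), whereas the other 3 above lay at -0.09 to 0.41. Tbx18, a transcription factor of mural and meningeal cells, was higher below (-2.04 ± 0.40), with 20.6% of its exonic bases under an exon on the opposite strand. Prg4 counted 54.0, 3.30, 2.46 and 2.68 CPM above and 16.8, 9.53, 29.5 and 29.3 CPM below and Slc13a4, a sulfate transporter gene of meninges, 23.1, 0.658, 0.501 and 0.650 CPM and 15.1, 7.07, 15.6 and 16.5 CPM. Neither passed (-0.45 ± 0.78 and -1.13 ± 0.91), and both were higher below without above 1 (-2.92 and -4.49). With Prx, Ogn (-3.33 ± 0.91, -6.18 without above 1) and Igfbp6 (-3.25 ± 0.84, -5.82) they were among the 6 genes for which above 1 lay farthest from the rest of its group. The part of meningeal or root tissue in the differences of fibroblast and Schwann cell genes was not tested. With above 1 and below 3 both left out, 18 of 18 and 14 of 15 of those genes were higher below. Over all rows in that fit, 11.9% were higher below and 8.64% higher above (20.5% in all). The meningeal genes were higher below there in 11 of 11 (median -3.72), so the fit does not take that tissue out of the comparison.

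Endothelial genes were higher below in 11 of 16 tested (median -0.64), in 7 without above 2, 3 or 4 or below 3 and in 4 in the 8-library fit. Vwf, a clotting protein of vessels, counted 51.9, 34.7, 22.6 and 28.8 CPM above and 97.3, 129, 231 and 99.4 CPM below (-2.01 ± 0.28, adjusted p = 0.000235), and the cadherin gene Cdh5 20.6, 11.0, 13.3 and 11.7 CPM above and 37.1, 26.0, 65.7 and 42.5 CPM below (-1.60 ± 0.24). Neither gene's libraries overlapped, and below 3 was the highest for both. The efflux pump gene Abcb1a (-0.90 ± 0.16) and the tight junction gene Cldn5 (-0.88 ± 0.17) differed less. Of 12 genes of pericytes and smooth muscle, 5 were higher below, 3 without above 2, 3 or 4 or below 3 and 1 in the 8-library fit. Pdgfrb (-1.05 ± 0.22), Vtn (-1.30 ± 0.33, -1.92 without above 1) and Anpep (-3.83 ± 0.54, -3.16 without below 3), which myeloid cells also express, were among them.

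Neuronal genes were higher above in 7 of 14 tested and higher below in none (median 0.68), a count of 4 without above 2 or 3 or below 4, 0 in the 8-library fit and 11 by limma-voom with library weights. The neurofilament genes led the list: Nefl counted 1843, 1815, 1917 and 1757 CPM above and 1040, 1274, 352 and 878 CPM below. Below 3 held less than any other library of the 8 and the flanks did not overlap (1.05 ± 0.28, adjusted p = 0.0153, and 0.79 without below 3). Nefm differed by 1.05 ± 0.29 and Tubb3, a tubulin of neurons, by 0.75 ± 0.20. An exon on the opposite strand covers 32.8% of the exonic bases of Nefl. Rbfox3, the antigen NeuN, counted 138, 133, 127 and 129.8 CPM above and 106, 127, 15.7 and 89.7 CPM below and did not pass (0.64 ± 0.38, adjusted p = 0.227). Snap25, of the synaptic release machinery, counted 2042, 2194, 2005 and 1943 CPM above and 1271, 1660, 223 and 1277 CPM below and did not pass either (0.89 ± 0.38, adjusted p = 0.0992), but was higher above without below 2 or 3 (1.15 and 0.55).

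Of 12 genes of motor and other cholinergic neurons 5 were higher above and none higher below, with 3 higher above in the 8-library fit. Slc5a7, the choline transporter, counted 61.8, 82.4, 93.2 and 82.5 CPM above and 34.2, 35.7, 44.4 and 30.9 CPM below, with no overlap and with below 3 the highest below (1.14 ± 0.15, adjusted p = 0.000211). The transferase gene Chat counted 23.5, 24.7, 25.2 and 23.1 CPM above and 16.7, 17.6, 8.61 and 12.0 CPM below (0.82 ± 0.20, adjusted p = 0.0106), and Slc18a3, the vesicular acetylcholine transporter gene, differed by 0.85 ± 0.23. Of 13 genes of glutamate signaling, Slc17a7 was the called one, and 5 were called without below 2, 2 without below 3 and 8 by limma-voom with library weights. Of 15 genes of GABA and glycine signaling, Glrb (0.76 ± 0.26) and Gphn (0.43 ± 0.14) were called, the first lost without any 1 of 13 libraries (adjusted p = 0.0547 to 0.096) and the second without 4 of them (0.0623 to 0.0801). The count was 7 without below 3, 5 without below 2, 10 by limma-voom with library weights, and 0 without above 2, 3 or 4 or below 4 or in the 8-library fit. Gad1, which makes GABA, counted 138, 170.5, 165 and 164 CPM above and 150.5, 173, 35.0 and 148 CPM below, with below 3 far under the other 7 libraries, which overlapped (0.33 ± 0.32, and 0.02 without below 3). Of 15 voltage-gated channel genes Kcna1 was called (0.66 ± 0.16), 3 were without below 2, 4 without below 3, 6 by limma-voom with library weights and none in the 8-library fit. The share of all rows tested that was called higher above was 9.11%.

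The 6 genes for which below 3 lay farthest from the rest were Tekt5, Hapln1, Scn4b, Gabra5, Asb16 and Kcnab3. Scn4b, a sodium channel subunit, counted 583, 574, 559.6 and 533 CPM above and 302, 430.5, 21.4 and 261 CPM below, and Kcnab3, a potassium channel subunit, 90.3, 89.5, 89.7 and 93.3 CPM and 62.4, 80.8, 5.14 and 52.3 CPM. In both, below 3 held far less than any other library of the 8. None of the 6 passed with all 4 libraries below, and all 6 were higher above without below 3, Scn4b by 0.77 and Kcnab3 by 0.48.

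**Figure D5:**
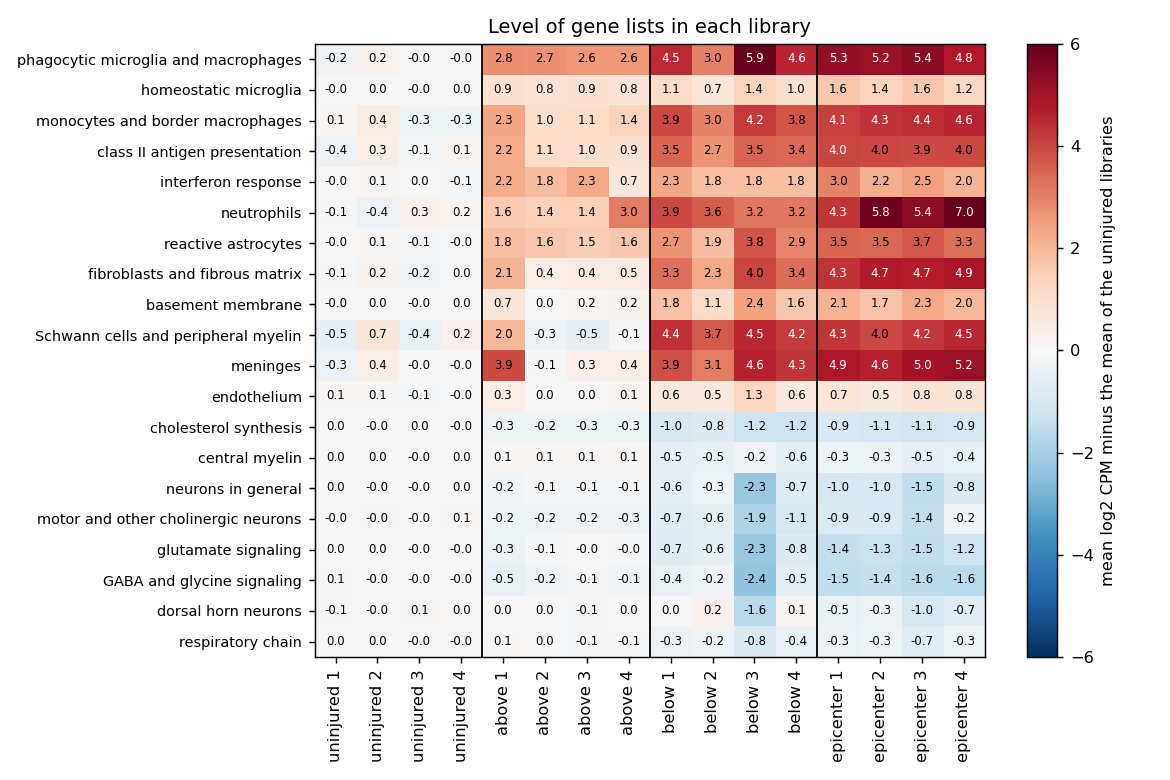
Mean log2 CPM of 20 gene lists (rows) in each of the 16 libraries (columns), minus the mean of the uninjured libraries. In below 3 the 5 neuronal lists lie at -2.39 to -1.61 and the phagocyte list at 5.91, and above 1 differs from the other libraries above in the lists of fibroblasts, Schwann cells and meninges.

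Dorsal horn genes had 2 of 16 members higher below and none higher above, with 5 higher below without below 3 and 1 in the 8-library fit. With all libraries, the share higher below did not exceed the 15.2% of all rows tested, here or among the serotonin receptor genes. Tac1, the precursor of substance P, counted 24.0, 23.9, 21.1 and 22.8 CPM above and 33.3, 55.0, 30.4 and 62.6 CPM below, with all 4 below over all 4 above (-0.98 ± 0.25, adjusted p = 0.0113). Npy, the neuropeptide Y gene, differed by -0.52 ± 0.12, and the enkephalin precursor gene Penk did not pass (-0.42 ± 0.20) except without below 3 (-0.59). Of 10 serotonin receptor genes Htr2b was called, at 0.664, 0.743, 0.695 and 0.822 CPM above and 4.78, 1.78, 19.6 and 7.07 CPM below (-3.50 ± 0.53, -2.63 without below 3), and without below 2 or below 3 respectively 2 and 1 of the list were higher above. Axon injury genes were higher below in 7 of 12 tested (4 in the 8-library fit) and higher above in 1. Sprr1a, which injured neurons and Schwann cells switch on, counted 4.88, 2.64, 4.91 and 4.15 CPM above and 16.6, 12.0, 22.8 and 14.6 CPM below, with no overlap (-1.99 ± 0.27, adjusted p = 0.000211). The stress factor gene Atf3 (-1.98 ± 0.35), the peptide gene Adcyap1 (-1.02 ± 0.13) and Klf6 (-0.82 ± 0.18) followed, and the growth cone gene Gap43 did not pass (0.01 ± 0.11). Stmn4 was the member higher above (0.38 ± 0.09). Immediate early genes had 5 of 10 members higher below, Egr2 and Junb (-0.87 ± 0.24) among them with 3 without above 3 and 2 in the 8-library fit, and Arc, a synaptic activity gene, higher above (0.69 ± 0.16), though not in that fit.

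Of 9 markers of dorsal root ganglia Calca was higher above and Trpa1 higher below (-1.61 ± 0.49), the latter not without above 2, 3 or 4 or below 3 (adjusted p = 0.0555 to 0.0789). Without epicenter 4 the counts were 2 and 3. Over all rows tested, 9.11% were called higher above and 15.2% higher below. Scn10a, which defines pain-sensing ganglion neurons, was at 0.175 CPM or less in all 8 libraries. Of 9 muscle genes 3 were higher below, Tnnt3 among them (-2.22 ± 0.41), which reached 1.44 CPM at most, 5 without below 2 and 1 in the 8-library fit. Fabp4, which fat cells, vessels and macrophages express, was the called gene of 3 fat genes tested (-3.58 ± 0.62). Proliferation genes had 4 of 14 members higher below, 10 without below 2, 2 without above 2 or below 3 and none in the 8-library fit. Mki67 was one (-1.10 ± 0.33), with no call without above 1 or 2 or below 1 or 3 (adjusted p = 0.0501 to 0.0749), and Mcm6 (-0.69 ± 0.19) and Tyms (-0.33 ± 0.08) were others.

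Nuclear genes of the respiratory chain were higher above in 13 of 15 tested (median 0.40), by small amounts. Cox5a, a subunit of cytochrome oxidase, counted 134, 122, 116 and 113 CPM above and 91.0, 97.9, 57.5 and 84.8 CPM below, with no overlap and with below 3 the lowest (0.55 ± 0.15, adjusted p = 0.0178). Cycs, the cytochrome c gene, differed by 0.53 ± 0.14, and Atp5b, of the ATP synthase, by 0.45 ± 0.13. The count was 3 without above 2, 8 without above 1 or 3, 6 without below 4, 3 with library totals alone and 1 in the 8-library fit, and Atp5b was not called without above 2 (adjusted p = 0.051) or with library totals (0.0572). The 37 mitochondrial rows of the table held 0 counts in these libraries, so the subunits encoded there were not analysed.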

How the data were processed

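RNA of 16 mouse spinal cord libraries was sequenced after extraction with RNA Stat60 and library preparation (TruSeq RNA Sample Prep Kit v2), which does not mark strand. The values are raw counts per gene, deposited by the authors as 1 table of 43346 rows, and per the submitters' processing notes TopHat2 2.0.12, Subread 1.4.4 and edgeR were used with genome build mm10. Samples were grouped by the column labels. The members, gene lists and naming rule were chosen with earlier results of these data known.

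Rows were tested with edgeR 4.0.16 (R 4.3.3; TMM scaling, rows filtered by group, 23769 kept with at least 99.97% of the counts of each library) by the quasi-likelihood F test, in 1 fit of all 16 libraries with no covariate and the contrast above minus below. Benjamini-Hochberg adjusted p-values under 0.05 were called, and the SE is the size of the log2 fold change divided by the square root of F. CPM use TMM-scaled totals, and log2 CPM a prior count of 2. Counting intervals and floors are at 95% and cover counting error only. Alternatives used limma 3.58.1 and DESeq2 1.42.0, other scalings and filters, and fits without single libraries. The method was tested on 1 set of simulated data, in which the share of false calls was above the nominal threshold and not all changed genes were recovered.

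Named genes were the 12 largest called differences in each direction at 5 CPM or more with no overlap, a list of anchor genes, in each list the 4 largest called members and those against its direction, the 6 lowest adjusted p in each direction, and the 6 genes in which below 3 or above 1 lay farthest from their group. Other genes, such as Hoxa10, Srebf2, Abca1, S100a9 and Isg15, were chosen after their values were seen. For 68 rows the symbol was taken by gene ID. Exon overlap was computed from the GENCODE annotation of the same build. Promoters came from RefSeq (GRCm38.p6). Some genes are counted in their lists but are not reported here by name.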

Additional observations from a re-analysis of the deposited data

Results flagged for a closer look

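In 79 of 530 groups of 4 libraries (14.9%), 1 library lay far from the other 3. The measure was the gap between that library and its nearest neighbour as a share of the range of the 4, with the 95% limit of Dixon's test. Chance alone flags about 1 in 20 groups, and genes of a list, or of a library that stands apart, are not independent of each other. Of the genes, 11 had been named because below 3 or above 1 lay farthest from its group, and all 11 are among these cases, so that the share in part restates how they were chosen. Without them it was 68 of 519 groups (13.1%). Genes are given by their log2 CPM and lists by their mean log2 CPM. What lies behind the position of these libraries was not tested.

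Among these named genes and lists above 1 stood apart most often above, and also on the first principal component of the 16 libraries (0.957). It lay over the others for Anpep (0.888), Ccdc37 (0.96), Cldn19 (0.837), Col1a1 (0.922), Col3a1 (0.924), Cp (0.848), Dcn (0.832), Dhh (0.968), Drp2 (0.95), Foxj1 (0.881), H2-Ab1 (0.907), H2-DMb1 (0.843), Hspg2 (0.911), Igfbp6 (0.95), Lum (0.912), Mmp2 (0.929), Npy (0.876), Ogn (0.988), Pmp22 (0.977), Prg4 (0.905), Prx (0.898), Serping1 (0.857), Slc13a4 (0.931) and Vtn (0.958). Among the lists it lay over them for complement (0.873), fibroblasts and fibrous matrix (0.935), meninges (0.874) and Schwann cells and peripheral myelin (0.858). It lay under the others for Gphn (0.831) and Slc1a3 (0.879). Among the lists it lay under them for serotonin receptors (0.845).

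Among the same genes and lists below 3 was the library that stood apart most often below. It lay over the others for Enpp6 (0.95) and Foxj1 (0.917). Among the lists it lay over them for ependymal cells and motile cilia (0.922) and endothelium (0.93). It lay under the others for Arc (0.877), Asb16 (0.847), Atp6v1h (0.832), Gabra5 (0.872), Gad1 (0.903), Hapln1 (0.85), Hoxa10 (0.866), Hoxd10 (0.833), Hoxd11 (0.842), Kcnab3 (0.842), Oprd1 (0.882), Rbfox3 (0.834), Scn4b (0.833), Snap25 (0.867), Sptssb (0.851) and Tekt5 (0.893). Among the lists it lay under them for Hox genes of thoracic level (0.921), glutamate signaling (0.88), GABA and glycine signaling (0.847), dorsal horn neurons (0.891) and serotonin receptors (0.928).

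Below 2 stood apart toward lower values. It lay under the others for Acp5 (0.979), C2 (0.93), Cd4 (0.982), Cd74 (0.847), Dcn (0.92), H19 (0.91), H2-Aa (0.935), H2-Ab1 (0.867) and Slc13a4 (0.897). Among the lists it lay under them for class II antigen presentation (0.86), cytokines and chemokines (0.834) and fat (0.835).

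The other cases lay in 4 libraries. Above 4 lay over its group for Hapln2 (0.916), Hoxa4 (0.843), S100a9 (0.979), Serpina3n (0.913) and the neutrophil list (0.909), and under it for Atp5b (0.836). Above 2 lay under its group for Dmp1 (0.837) and for the list of B and plasma cells (0.919), and above 3 for the list of dorsal horn neurons (0.946). Below 1 lay over its group for the interferon list (0.969).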

How the results depend on the processing

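In none of the alternatives did a row called under both settings change direction. A test against a 1.5-fold change moved the count of 5788 called rows by more than 1.5 times (993, of which 47 were higher above and 946 higher below). So did a threshold of 0.01 (2302; 582 and 1720) and a fit of the 8 flank libraries alone (1643; 460 and 1183). The count also moved that far without above 2 (3587; 1112 and 2475). With a term for the replicate number, a replicate block, in those 8 libraries it was 217 (38 and 179). Scaling by library totals gave 953 rows higher above, and limma-voom with library weights gave 3995. Fits without 1 library gave 3587 to 8262 called rows, 1112 to 3532 of them higher above and 2475 to 4730 higher below. DESeq2 called 7094 rows and limma-voom 5814.

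Whether the replicate numbers pair the libraries is not given by the labels. The deviations of same-numbered above and below libraries correlated at -0.0466, 0.15, -0.0895 and -0.017. Pairs of unlike number ran from -0.264 to 0.195, so these values cannot show whether libraries of the same number share a mouse. With a replicate block the count was 6165, and with the block in the 8 flank libraries alone 217, of which 38 were higher above and 179 higher below. In that last fit the lumbar and sacral Hox list had 5 members higher below, class II presentation 3, and phagocytes and fibrous matrix 1 each. Cholesterol synthesis had 9 members higher above, central myelin 2 and the thoracic Hox list 1.

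For the 219 named genes, 6990 values were computed under 32 alternatives. The call was the same in 6459, lost in 472, gained in 58 and turned in 1, that of Foxj1 without below 3 (0.20, adjusted p = 0.043); its values without 1 library ran from -0.24 to 0.20. Of 187 called genes, 164 were called in every fit without 1 library, and 117 of 185 in the fit of the 8 flank libraries alone. With above 1 and below 3 left out together, Cox5a lost its call as well. DESeq2 gave no adjusted p for 4 of the genes (Dcn, Hoxc11, Scn10a and Slc13a4), which are not counted as lost there. The causes of these changes were not tested. With 4 libraries a group, whether the spread between libraries or the depth limited the precision was not tested. Some genes had few counts over the 4 libraries above, such as Hoxa13 (0), Cd3g (15) and Gzmb (10).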
